A study of Arabidopsis thaliana with 2 samples.

Results

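The ATG8 genes of Arabidopsis and NBR1, which together link cargo to the autophagosome, were described in leaf explants with and without induction of the transcription factor gene NAC1. They are the 10 loci ATG8A to ATG8I and NBR1, picked from the 33602 loci of the count tables by their locus identifiers, and all 10 passed the count minimum. There is 1 estradiol library and 1 control library. They come from explants of first-pair rosette leaves of plants 12 days after sowing, and both carry the transgene pER8:3xFlag-NAC1 in the Col-0 background. The pER8 vector puts its insert, a Flag-tagged NAC1, under an estradiol-responsive switch. The estradiol explants stood on B5 medium with β-estradiol dissolved in DMSO, and the control explants on B5 medium with DMSO alone. Both groups thus carry the transgene and both met the solvent. There is no estradiol library without the transgene, so effects of estradiol itself and of NAC1 cannot be told apart. The design text gives the aim as finding genes that NAC1 up-regulates. The labels give neither the number of independent lines or pooled plants nor the length of the treatment.

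Autophagy encloses cytoplasm in a double membrane and delivers it to the vacuole for breakdown. ATG8 is a ubiquitin-like protein that is attached to the lipid of the growing membrane, where it recruits cargo receptors. The protease ATG4 first trims most ATG8 precursors to expose a glycine at their end, and the enzymes ATG7 and ATG3, with the ATG12, ATG5 and ATG16 complex, then join that glycine to the lipid. NBR1 is a cargo receptor that binds ubiquitin-marked proteins and ATG8, and is itself degraded with its cargo. In leaves the pathway is known for nutrient recycling in starvation and senescence.

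The coding ends are shown because they separate the family into precursors that need trimming and those that do not. Each line gives the last 48 bases of the coding strand, stop codon included, with the codon of the conserved glycine in capitals (RefSeq annotation, assembly TAIR10.1).
ATG8A: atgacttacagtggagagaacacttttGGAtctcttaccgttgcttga
ATG8B: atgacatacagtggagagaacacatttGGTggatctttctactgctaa
ATG8C: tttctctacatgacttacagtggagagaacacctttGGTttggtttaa
ATG8D: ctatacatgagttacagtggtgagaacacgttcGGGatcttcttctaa
ATG8E: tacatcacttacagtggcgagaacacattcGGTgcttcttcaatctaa
ATG8F: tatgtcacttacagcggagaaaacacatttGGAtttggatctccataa
ATG8G: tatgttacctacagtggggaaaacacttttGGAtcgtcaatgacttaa
ATG8H: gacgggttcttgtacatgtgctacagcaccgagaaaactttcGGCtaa
ATG8I: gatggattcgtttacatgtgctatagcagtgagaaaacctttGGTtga
In ATG8A to ATG8G between 2 and 5 codons followed the glycine codon, and in ATG8H and ATG8I there were 0, so their glycine is last as translated. A shorter annotated coding sequence of ATG8C lacks this end. Identity between coding sequences was highest for ATG8A and ATG8B, at 84.5%, and lowest for ATG8G and ATG8I, at 55.6%. ATG8H and ATG8I shared 67.8% with each other.

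NBR1 is shown by the stretch that encodes its known ATG8-binding motif, near the end of a coding sequence of 704 codons. Codons 661 to 664, in capitals, read tryptophan, aspartate, proline and isoleucine, and this run of codons was found 1 time in frame.
NBR1: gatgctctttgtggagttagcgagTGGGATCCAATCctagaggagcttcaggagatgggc

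The libraries held 48350705 gene counts with estradiol and 39799127 in the control. NAC1 (AT1G56010) had 28380 counts in the estradiol library and 466 in the control, 49.4-fold higher (95% interval 45.1 to 54.3), with transgene and native reads counted together. Ratios are estradiol over control after scaling for library size, with an exact 95% interval that covers counting error only. With 1 library a group there is no test and no spread between replicates, so every difference is between these 2 libraries. Leaf markers were abundant, with 6007 CPM (counts per 1000000 scaled counts) summed over RBCS1A, RCA, CA1 and LHCB3 in the estradiol library and 8042 CPM in the control. Of 5 root genes EXPA7 and RHD6 were at 0 in both, which allows up to 3 counts in each, COBL9 and PRP3 had at most 2 counts, and SCR had 2002 counts with estradiol and 1710 in the control. The flower and seed genes AP3 and CRA1 had at most 5 counts, and AG 14 with estradiol and 7 in the control.

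All 9 ATG8 genes and NBR1 had more scaled counts with estradiol, by 1.12-fold to 2.12-fold. ATG8E, ATG8H and ATG8A stood highest by ratio, and ATG8C, ATG8D and ATG8G lowest. By the rule that the whole interval lies above 2-fold, 0 of the 10 were higher and 0 lower, beside 5.38% of 20274 measured genes higher and 4.64% lower. Past 1.5-fold, 3 of the 10 were higher and 0 lower, beside 8.92% of measured genes higher and 9.91% lower. A threshold of 1, here and for the lists below, was chosen after seeing the data. The whole interval lay above 1 for 10 of 10, beside 36.7% of measured genes above and 35.3% below. Among the 11880 genes with at least the 1229 summed counts of the lowest member these shares were 45.4% and 35.9%. If the libraries also varied with a coefficient of variation of 0.2, which is assumed and not measured, the interval stayed above 1 for 3 of 10, beside 8.46% of measured genes above and 9.85% below. In leaf tissue in bulk, more RNA per cell and more cells of a type that expresses these genes cannot be told apart.

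**Figure D1:**
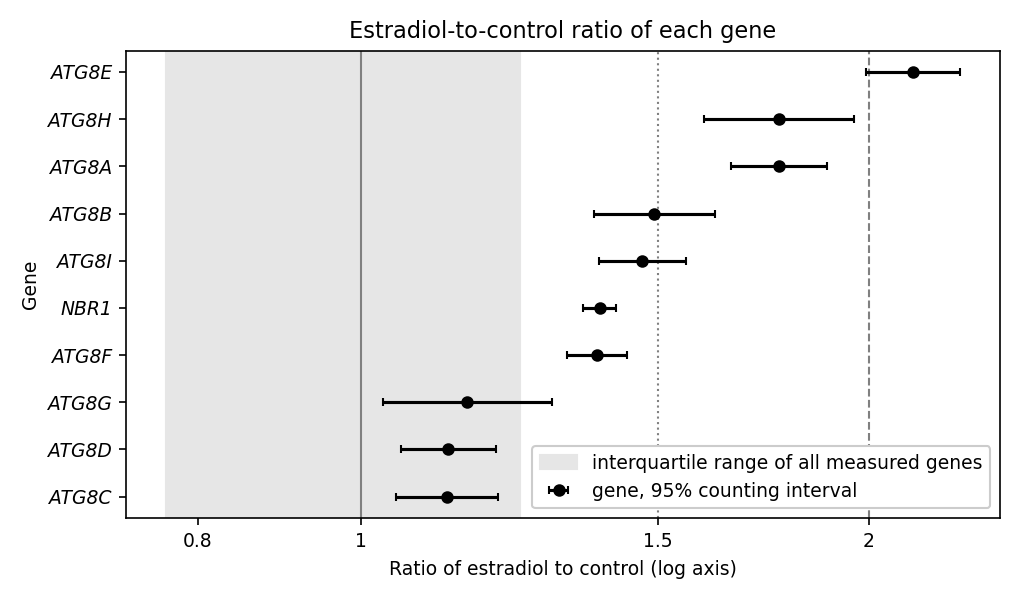
Ratio of the estradiol to the control library (log axis) for each of the 10 genes, with 95% counting intervals. The grey band is the interquartile range of all measured genes, and lines mark 1, 1.5 and 2. The 10 intervals lie to the right of 1, and ATG8E alone has its ratio past 2, with its lower bound at 1.99.

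ATG8E (AT2G45170, chromosome 2, 18624264 to 18625791, plus strand) had 3387 counts with estradiol and 1294 in the control. The estradiol library stood at 69.6 CPM and the control at 32.7 CPM, a ratio of 2.12 (1.99 to 2.27). This is a log2 ratio of 1.09, above that of 92.8% of measured genes. Its lower bound touches the 2-fold line, and scaling by total counts alone gives 2.15 and moves it past that line.

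ATG8A (AT4G21980, chromosome 4, 11655562 to 11657034, plus strand) had 2915 counts with estradiol and 1337 in the control. Its ratio was 1.77 (1.66 to 1.89). ATG8H (AT3G06420, chromosome 3, 1954990 to 1956397, minus strand), whose product needs no trimming, had 1193 and 547 counts in the estradiol and control libraries. Its ratio, 1.77 (1.60 to 1.96), differed from that of ATG8A by less than counting error. ATG8A overlaps APR3 (AT4G21990) on the opposite strand over 2.86% of its exonic bases. APR3, a sulfate assimilation gene, had 8669 counts with estradiol and 15718 in the control, the other direction from ATG8A.

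The middle group holds ATG8B, ATG8I, ATG8F and NBR1. ATG8B (AT4G04620, chromosome 4, 2328442 to 2330590, minus strand) had 1629 counts with estradiol and 886 in the control, a ratio of 1.49 (1.37 to 1.62). ATG8I (AT3G15580, chromosome 3, 5273526 to 5275095, minus strand), the other gene without trimming codons, had 3063 and 1693 counts in the estradiol and control libraries, a ratio of 1.47 (1.38 to 1.56). The reference lists ATG8I under the symbol APG8H. ATG8F (AT4G16520, chromosome 4, 9306339 to 9308538, minus strand) had 6373 counts with estradiol and 3748 in the control, a ratio of 1.38 (1.33 to 1.44). ATG8I, ATG8B and ATG8F did not differ from each other in ratio beyond counting error. ATG8I is overlapped over 18.4% of its exonic bases by AT3G15578, which had 5 counts with estradiol and 1 in the control. ATG8A and ATG8B, the closest pair, share 4 windows of 50 bases, under 1% of those of either gene.

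ATG8C, ATG8D and ATG8G lay close to the control. ATG8C (AT1G62040, chromosome 1, 22932760 to 22934549, plus strand) had 1944 counts with estradiol and 1403 in the control, a ratio of 1.12 (1.05 to 1.21). For ATG8D (AT2G05630, chromosome 2, 2082894 to 2084905, minus strand) the counts were 2223 with estradiol and 1602 in the control, a ratio of 1.13 (1.06 to 1.20). ATG8G (AT3G60640, chromosome 3, 22415751 to 22417548, plus strand) had 722 and 507 counts in the estradiol and control libraries, a ratio of 1.16 (1.03 to 1.30). These 3 ratios lie within the interquartile range of all measured genes, whose log2 ratios run from -0.38 to 0.31.

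NBR1 (AT4G24690, chromosome 4, 12741032 to 12744670, plus strand) had the most counts of the members, 20021 with estradiol and 11732 in the control. Its longest transcript, of 2742 bases, is also the longest among them. That is 411 CPM in the estradiol library and 297 CPM in the control, a ratio of 1.38 (1.35 to 1.42). Its ratio was that of ATG8F within counting error. There were 0.854 NBR1 counts for each ATG8 count with estradiol and 0.901 in the control, so NBR1 was lower relative to the summed ATG8 genes by a factor of 0.947 (0.918 to 0.977). AT4G24700 overlaps NBR1 on the other strand over 3.68% of its exonic bases, and had 212 counts with estradiol and 242 in the control.

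**Figure D2:**
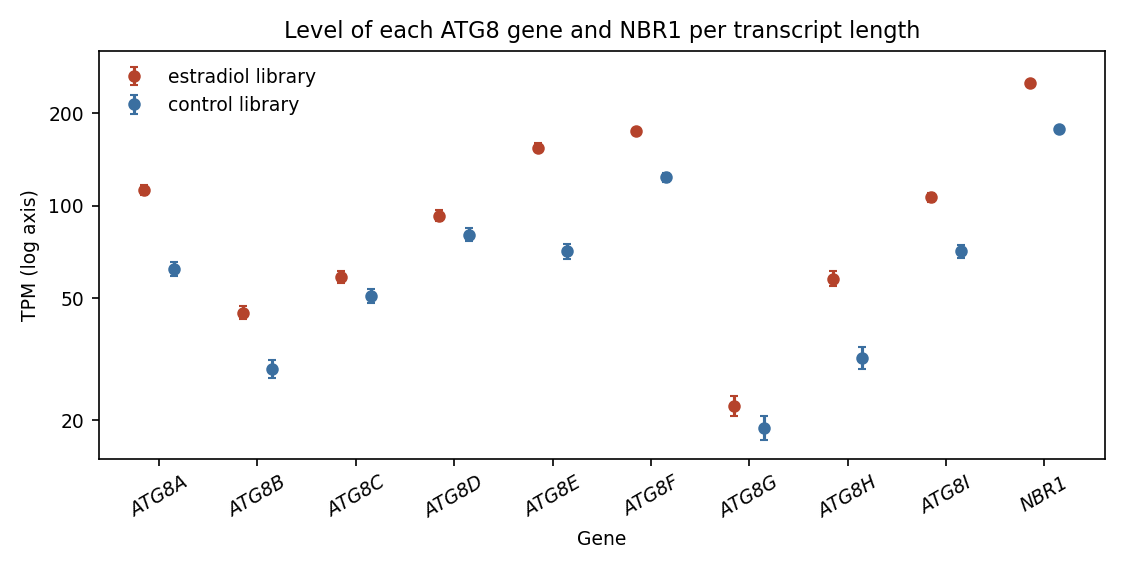
Level of each gene in TPM (log axis) in the estradiol and control libraries, from counts and the longest annotated transcript. Bars are 95% counting intervals. NBR1 and ATG8F are highest and ATG8G lowest in both libraries, and with coding length ATG8F stands above NBR1.

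Per transcript length, the summed ATG8 genes stood at 825 TPM (counts divided by transcript length, per 1000000 over all genes) with estradiol and 540 TPM in the control. NBR1 alone stood at 252 TPM with estradiol and 178 TPM in the control, above every ATG8 gene in either library on this length scale. With coding length in place of transcript length that order turns, with ATG8F at 352 TPM and NBR1 at 192 TPM with estradiol, and ATG8F at 249.6 TPM and NBR1 at 135 TPM in the control. ATG8F led the family, with a level of 175 TPM in the estradiol library and 124 TPM in the control. ATG8E came next with estradiol, at 154 TPM, and had rank 3 in the control at 71.1 TPM. ATG8A stood at 113 TPM with estradiol and 62.2 TPM in the control, and ATG8I at 107 TPM with estradiol and 71.0 TPM in the control. The intervals of ATG8A and ATG8I overlapped with estradiol, as did those of ATG8E and ATG8I in the control. ATG8D stood at 92.8 TPM with estradiol and 80.6 TPM in the control, and ATG8C at 58.6 TPM with estradiol and 51.0 TPM in the control. The low end held ATG8H, at 57.9 TPM with estradiol and 31.9 TPM in the control, ATG8B, at 44.9 TPM with estradiol and 29.4 TPM in the control, and ATG8G, at 22.3 TPM with estradiol and 18.9 TPM in the control. ATG8C and ATG8H overlapped in their intervals with estradiol, and ATG8H and ATG8B in the control. ATG8D thus had rank 5 in the family with estradiol and rank 2 in the control. Within the family, coding length also changes the middle of the order, while ATG8F stays first and ATG8G last of the 9 ATG8 genes. By coding length ATG8D has rank 6 with estradiol and rank 5 in the control. In the control ATG8I then has rank 2 and ATG8C rank 3. Coding length was that of the longest annotated coding sequence, which for ATG8D is 495 bases, while a shorter annotated form has 363.

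The make-up of the family, which does not depend on library scaling, also differed between the libraries. ATG8E made up 14.4% of ATG8 counts with estradiol (exact binomial interval 14.0 to 14.9) and 9.94% in the control (9.43 to 10.5). ATG8A held 12.4% with estradiol (12.0 to 12.9) and 10.3% in the control (9.75 to 10.8), and ATG8H 5.09% with estradiol (4.81 to 5.38) and 4.20% in the control (3.86 to 4.56). The share of ATG8D was 9.48% with estradiol (9.11 to 9.86) and 12.3% in the control (11.7 to 12.9). That of ATG8C was 8.29% with estradiol (7.94 to 8.65) and 10.8% in the control (10.3 to 11.3). ATG8F held 27.2% with estradiol (26.6 to 27.8) and 28.8% in the control (28.0 to 29.6). For ATG8G it was 3.08% with estradiol (2.86 to 3.31) and 3.89% in the control (3.57 to 4.24). ATG8I, at 13.1% with estradiol and 13.0% in the control, and ATG8B, at 6.95% and 6.81% in the same order, kept their shares within counting error. Of 36 pairs of ATG8 genes, 29 differed in ratio by more than counting error. That share was not computed for pairs of other genes. Narrow intervals are common at this depth, where 45.4% of the 11880 genes lay above 1 and 35.9% below. ATG8C and ATG8E stood farthest apart, the ratio of ATG8C being 0.529 of that of ATG8E (0.482 to 0.581). ATG8H and ATG8I, the genes without trimming codons, together had a ratio of 1.54 (1.46 to 1.62), and ATG8A to ATG8G together 1.45 (1.41 to 1.48). Within the pair without these codons, the ratio of ATG8H exceeded that of ATG8I by 1.21-fold (1.07 to 1.36).

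**Figure D3:**
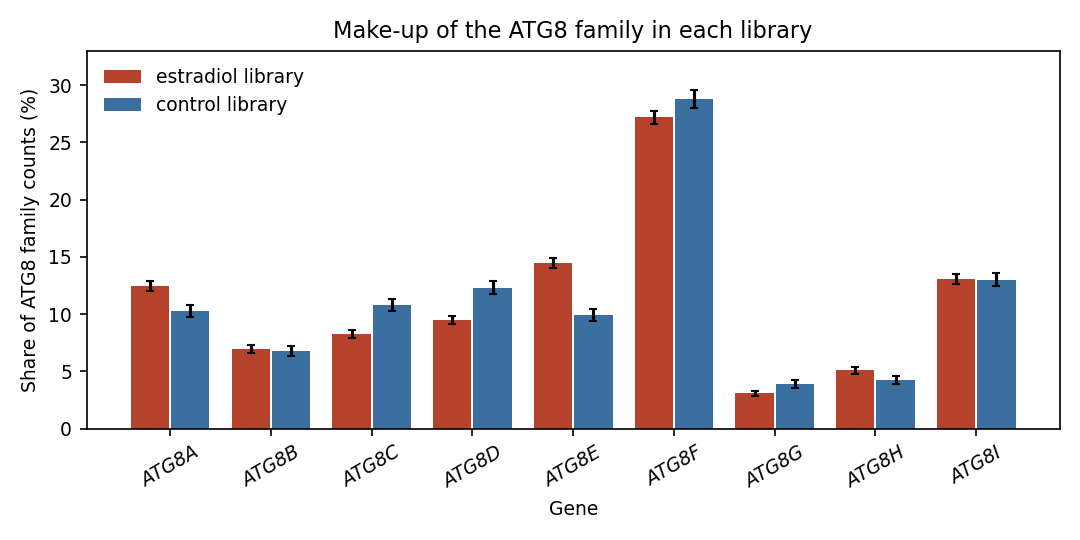
Share of all ATG8 counts held by each gene (percent) in the estradiol and control libraries, with exact 95% binomial intervals. ATG8E has 14.4% with estradiol and 9.94% in the control, while ATG8C, ATG8D, ATG8F and ATG8G have smaller shares with estradiol.

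The promoters of ATG8E and ATG8C are shown because these genes had the highest and the lowest ratio. Each line is the 250 bases before the annotated gene start, with capitals on matches on either strand to TGACG (bound by TGA-type bZIP factors), TTGAC (the W-box core of WRKY factors) and CACG (a core of NAC sites). TGACG and CACG overlap within TGACGTG, and TTGACG would hold both of the longer motifs.
ATG8E, TAIR10.1 chr2:18624014-18624263, plus strand: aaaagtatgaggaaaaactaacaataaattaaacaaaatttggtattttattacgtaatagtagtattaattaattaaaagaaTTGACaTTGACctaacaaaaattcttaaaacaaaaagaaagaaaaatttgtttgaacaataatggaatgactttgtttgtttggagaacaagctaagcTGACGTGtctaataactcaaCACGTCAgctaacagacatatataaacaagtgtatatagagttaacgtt
ATG8C, TAIR10.1 chr1:22932510-22932759, plus strand: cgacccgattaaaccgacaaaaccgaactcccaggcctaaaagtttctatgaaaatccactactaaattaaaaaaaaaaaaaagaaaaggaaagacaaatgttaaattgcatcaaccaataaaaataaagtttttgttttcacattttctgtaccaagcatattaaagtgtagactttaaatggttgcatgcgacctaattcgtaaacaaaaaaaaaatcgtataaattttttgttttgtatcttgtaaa
ATG8E held 2 matches to TGACG, 2 to TTGAC and 2 to CACG, and ATG8C held 0 of each. TGACG was found in 6 of 9 ATG8 promoters, those of ATG8A, ATG8E, ATG8F, ATG8G, ATG8H and ATG8I, and in 18.6% of 27443 promoters of protein-coding genes. ATG8A, ATG8E and ATG8H, the highest by ratio, hold it, as does ATG8G with a ratio of 1.16, while ATG8B with a ratio of 1.49 does not. Matches to TGACG and CACG numbered 3 and 3 in ATG8I and 2 and 2 in ATG8F. They numbered 1 and 3 in ATG8H, 1 and 1 in ATG8G, and 1 and 0 in ATG8A. ATG8B and ATG8D held 0 of each. A link between matches and ratios was not tested. CACG was in 5 of 9 ATG8 promoters beside 45.6% of all, TTGAC in 2 of 9 beside 44.9%, and the G-box CACGTG in 0 of 9 beside 6.49%. The NBR1 window held 1 match to TTGAC and 0 to the others. A match is a description of letters and not a binding site.

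The rest of the autophagy machinery was read from lists by step, which are incomplete because loci the reference does not name were dropped. Of the listed loci 4 of 8 were kept for initiation, 3 of 6 for the lipid kinase complex and 8 of 17 for receptors. The ATG1 kinase genes, ATG14 and VPS38 are among those dropped. Genes that conjugate and trim ATG8 were above the control in 8 of 9 by the whole interval, beside 36.7% of all measured genes, with a median log2 ratio of 0.42, and the remaining gene, ATG12B, had an interval that includes 1. ATG5 (1248 counts with estradiol and 561 in the control) had a ratio of 1.81 (1.63 to 2.00) and ATG7, the activating enzyme, 1.69 (1.52 to 1.87). ATG3, which transfers ATG8 to the lipid, was at 1.14 (1.08 to 1.20). The C54 peptidase genes AT2G44140 and AT3G59950, annotated in autophagy, were at 1.17 (1.09 to 1.26) and 1.11 (1.04 to 1.18), and AT5G50230, with an ATG16 domain, at 1.34 (1.22 to 1.47). ATG12A, for the ubiquitin-like partner of ATG5, was at 1.39 (1.25 to 1.55).

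Among the genes for membrane delivery 9 of 10 were measured, 7 above and 1 below the control by the whole interval, beside 36.7% and 35.3% of all measured genes, with a median log2 ratio of 0.44. ATG18A, which binds phosphoinositides, was at 1.76 (1.64 to 1.88), the membrane protein gene ATG9 at 1.67 (1.55 to 1.79), the lipid transfer gene ATG2 at 1.53 (1.45 to 1.62) and ATG18D at 1.51 (1.30 to 1.76). ATG18F was below the control at 0.882 (0.833 to 0.935), and ATG18E had 0 counts with estradiol and 1 in the control. The initiation genes ATG101, ATG13 (AT3G49590) and ATG11 were at 1.44 (1.32 to 1.58), 1.33 (1.23 to 1.44) and 1.20 (1.13 to 1.28), while AT3G18770, also annotated as ATG13, was at 0.982 (0.853 to 1.13). In the lipid kinase complex VPS15, VPS34 and ATG6 were at 1.38 (1.29 to 1.47), 1.30 (1.23 to 1.36) and 1.10 (1.03 to 1.18). Over these 4 lists together 25 genes were measured, of which 0 passed 2-fold, 4 passed 1.5-fold upward, 21 lay above 1 and 1 below. With the assumed variation of 0.2, 2 of the 25 stayed above 1 and 0 below, beside 8.46% and 9.85% of measured genes. Over all measured genes 5.38% were higher past 2-fold, 8.92% past 1.5-fold and 36.7% past 1, with 35.3% below 1, and among the 11880 genes with at least 1229 summed counts 45.4% lay above 1 and 35.9% below. The median log2 ratio of the 25 was 0.41, beside 0.55 for the ATG8 genes and 0.01 for all measured genes.

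Among receptors and adaptors other than NBR1, 0 of 8 genes were higher and 0 lower past 1.5-fold, beside 8.92% and 9.91% of all measured genes. By the whole interval 7 of 8 lay above the control and 0 below, with a median log2 ratio of 0.30. Of all measured genes 36.7% lay above and 35.3% below, and of the 11880 with at least 1229 summed counts 45.4% and 35.9%. With the assumed variation of 0.2, 0 of the 8 stayed above 1, beside 8.46% of measured genes. DSK2B, a ubiquitin-binding receptor, was at 1.51 (1.46 to 1.57), EXO70B2, an exocyst subunit, at 1.44 (1.38 to 1.51), ATI2 at 1.32 (1.26 to 1.39) and the proteasome receptor RPN10 at 1.27 (1.23 to 1.32). TSPO had 29 counts with estradiol and 31 in the control, and its interval includes 1. Genes for fusion with the vacuole were split, with 5 above and 4 below the control, beside the same 36.7% and 35.3%, and a median log2 ratio of 0.20. Past 1.5-fold 0 of these 9 genes were higher and 0 lower. RABG3F, a vacuolar Rab GTPase, was at 1.34 (1.30 to 1.39), the SNARE gene VTI12 at 1.29 (1.23 to 1.35) and RABG3E at 1.26 (1.20 to 1.32). CCZ1A was at 0.664 (0.611 to 0.721).

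Genes of the TOR and SnRK1 regulator list were split. Of 9 TOR and SnRK1 genes 4 lay above and 3 below the control, beside 36.7% and 35.3% of all measured genes, with a median log2 ratio of -0.03. Past 1.5-fold 0 of the 9 were higher and 0 lower, beside 8.92% and 9.91% of all measured genes. TOR, the kinase that restrains autophagy, was at 1.14 (1.09 to 1.19), and KIN10, a catalytic SnRK1 subunit known to promote it, at 0.851 (0.809 to 0.895). S6K2 and RAPTOR1A were at 0.816 (0.777 to 0.858) and 0.829 (0.753 to 0.912). Among transcriptional regulators, WRKY33 had 9369 counts with estradiol and 15213 in the control, which is 192 CPM with estradiol and 385 CPM in the control. Its ratio was 0.4998 (0.487 to 0.513), so the interval spans the 2-fold line and WRKY33 was not called lower by that rule. The light-signalling factor gene HY5 was at 0.725 (0.641 to 0.820), and TGA9, known to bind ATG8 promoters, at 0.722 (0.555 to 0.938). HDA9, a histone deacetylase gene, was at 1.05 (0.963 to 1.15).

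Of 7 measured sugar starvation genes 4 passed 2-fold, each with a larger ratio than any ATG8 gene or NBR1, and 0 were lower by that rule, beside 5.38% of all measured genes higher and 4.64% lower. Their median log2 ratio was 1.61. DIN6 (the asparagine synthetase gene ASN1) was at 7.77 (4.95 to 12.8), the branched-chain amino acid transaminase gene BCAT2 at 4.94 (4.49 to 5.46), SEN1 at 4.16 (3.66 to 4.75) and DIN10 at 3.05 (2.96 to 3.14). TPS10, DIN3 and TPS8 were at 1.94 (1.81 to 2.08), 1.33 (1.23 to 1.44) and 0.929 (0.889 to 0.971).

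**Figure D4:**
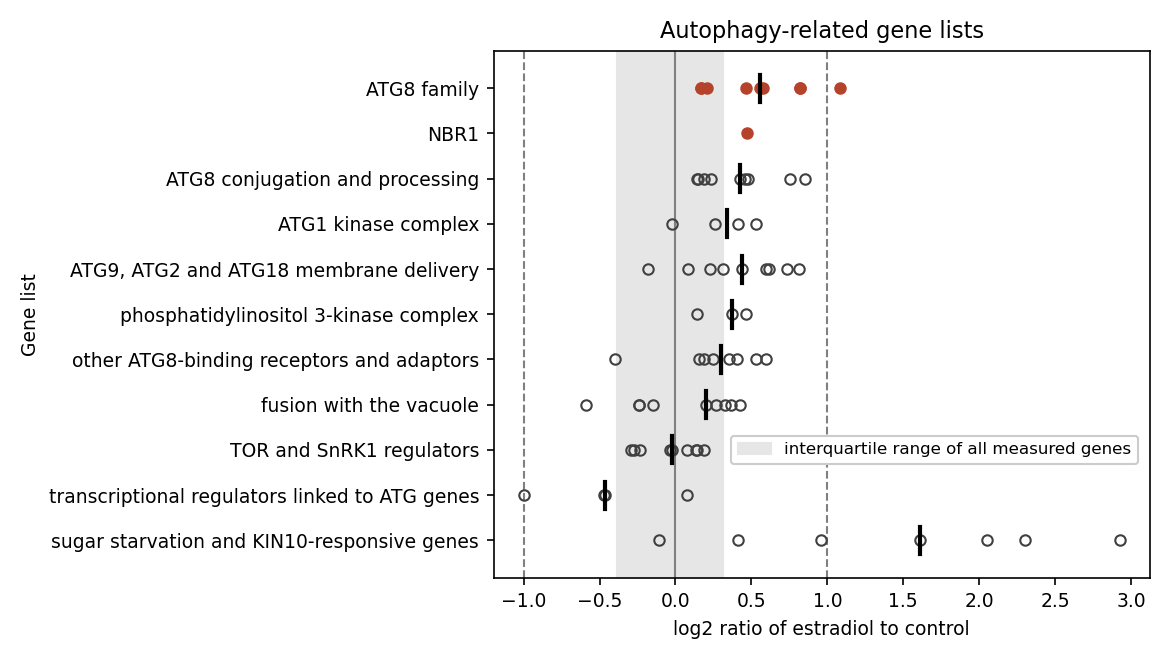
Log2 ratio of estradiol to control for the measured genes of each list, with ATG8 and NBR1 filled and black ticks at list medians. The grey band is the interquartile range of all measured genes and dashed lines mark 2-fold. ATG8 genes lie between 0.17 and 1.09, and the starvation genes reach 2.93.

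Cell type markers also differed between the libraries. All 4 leaf mesophyll markers had intervals below the control, beside 35.3% of all measured genes. LHCB3 was furthest at 0.318 (0.308 to 0.327). CA1, RBCS1A and RCA were at 0.634 (0.627 to 0.641), 0.754 (0.747 to 0.760) and 0.875 (0.868 to 0.882). Past 2-fold 1 of the 4 was lower, beside 4.64% of all measured genes. Among xylem markers, whose cells die as they mature, the protease gene XCP1 was at 2.40 (2.08 to 2.79), while XCP2 was at 0.820 (0.754 to 0.891) and IRX3 at 0.753 (0.633 to 0.895). Summed over the 3 genes, xylem markers stood at 43.3 CPM with estradiol and 41.3 CPM in the control. The guard cell genes FAMA and KAT1 summed to 33.6 CPM with estradiol and 48.3 CPM in the control, and the phloem gene SUC2 stood at 153 CPM with estradiol and 183 CPM in the control. The part of these markers in the ATG8 and NBR1 ratios was not tested.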

How the data were processed

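RNA sequencing of 2 libraries, 1 per group, was used. Groups follow the treatment labels. The labels do not explain the short titles, DM for the estradiol and ER for the control library, and the library labelled estradiol is the one with high NAC1 counts. The authors deposited raw read counts for 33602 loci per library, with 5 summary lines that were kept apart. FastQC, HTSeq, DESeq and the TAIR10 build are named per the submitters' processing notes. No source used here gives the aligner, annotation release or strand setting, so overlapping genes are uncertain. Ambiguous reads were 1.91% of the estradiol and 2.05% of the control library.

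Scaling was by TMM (edgeR 4.0.16, R 4.3.3), with factors of 1.01 for estradiol and 0.993 for control. A gene was measured with at least 10 counts in 1 library. Intervals of ratios are exact at 95% (Clopper-Pearson on the split of the summed counts). Ratios between members use a log-normal interval. Without molecular identifiers, reads are not independent molecules, so intervals and limits cover counting error only. Log2 ratios use a prior count of 0.5. TPM used the longest transcript, known for 99.9% of measured genes, and RefSeq TAIR10.1 gave names, sequences and coordinates. The ratio script was tested on simulated counts. Genes were matched by locus, and 17 of 90 listed loci were dropped because the reference names neither the symbol nor autophagy. Members and lists were chosen with earlier results of these data known. Named genes are the members, NAC1 and, per list, called genes and up to 4 others whose interval lies farthest from 1, and further list genes were named after their values were seen. With 2 libraries a pattern is 1 ratio, so no genes of like pattern were sought.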

Additional observations from a re-analysis of the deposited data

How the results depend on the processing

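No paired analysis was possible because each group has 1 library, and no library could be left out. The 10 members stayed above the control under TMM, total count and DESeq2 scaling, and these moved the median log2 ratio of all genes by at most 0.02. The number of members called higher was 0 of 10 past 2-fold, 1 with total counts scaling (ATG8E), 3 past 1.5-fold (ATG8A, ATG8E and ATG8H), 10 past 1 and 3 past 1 with an assumed coefficient of variation of 0.2. It was 0 with DESeq2 size factors, a minimum of 50 counts, none, 4-fold, or the assumed variation at 2-fold. The thresholds past 1 were chosen after seeing the data. All measured genes called higher numbered 1090 at 2-fold, 468 at 4-fold, 1809 at 1.5-fold and 698 with the assumed variation, and those called lower 940, 161, 2009 and 385. An interval reached 1 at an assumed coefficient of variation between 0.032 (ATG8G) and 0.276 (ATG8E). Depth sets the printed intervals, and the spread between libraries, which they leave out, cannot be estimated here.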
